A study of Mus musculus with 2 samples.

Results

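The genes of glycolysis and of the cellular response to low oxygen were examined in serum-starved MEFs, mouse embryonic fibroblasts, which are connective tissue cells cultured from embryos. The 50 members were chosen by a fixed list of gene names. They were 7 genes of oxygen sensing and 27 genes of glucose uptake, glycolysis and the fate of pyruvate and lactate. The other 16 were listed as targets of the hypoxia-inducible factors (HIFs). Each gene was read from the probe set annotated to it alone that had the highest mean signal over both arrays, and array control probe sets were left out. By this rule 46 of the 50 members had a probe set, among 18193 genes with one in the whole series. Gpi1, Gapdh, Eno1 and Bnip3l had none. Of the 46, 43 had a mean signal at or above 22.2, the median over all probe sets, and are called kept, as were 11159 genes in all. The 3 dim members were Aldoc, Slc16a3 and Car9.

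The 2 groups were MEFs of genotype p27delta51 and wild type MEFs, each represented by 1 Affymetrix array. The p27delta51 allele of Cdkn1b is known for lacking the amino-terminal part of p27, through which p27 inhibits cyclin-dependent kinases. Both were grown in medium with 10% fetal bovine serum and then deprived of serum for 72 h. The number of embryos, the passage and the oxygen level are not given in the sources used here. With 1 array per genotype no test was made and no SD exists, so none of the differences is backed by a replicate. All values describe these 2 arrays, and the allele and other differences between the 2 cultures cannot be told apart.

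Cells under low oxygen obtain ATP mainly from glycolysis, which breaks glucose down to pyruvate, and they turn pyruvate into lactate rather than burning it in mitochondria. The HIF alpha subunits, encoded by Hif1a and Epas1, are made at all times but are hydroxylated by the Egln enzymes when oxygen is present, bound by the VHL protein and destroyed. When oxygen falls the alpha subunit persists, pairs with the Arnt protein and binds a short core motif upstream of genes for glucose transporters, glycolytic enzymes and adaptation to low oxygen. Because the alpha subunits are controlled mainly as proteins, transcript levels of Hif1a and Epas1 do not report HIF activity, which was not measured here.

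The array signal of p27delta51 was higher than that of wild type for most kept members. Of the 43 kept members, 33 were higher and 10 lower in p27delta51, with a median log2 difference, p27delta51 minus wild type, of 0.48. Of all 11159 kept genes, 6204 were higher and 4944 lower, with a median of 0.079 and quartiles of -0.33 and 0.51. The 33 higher members include Hif1a, Arnt and Pgk1, whose probe sets disagree in direction, and Car12 at 0.01. At least 2-fold higher were 11 members, where 10.8% of all kept genes were. They were the glucose transporter gene Slc2a3, Egln3, Ak4, Pdk1, Bnip3, Bhlhe40, Slc16a1, Pfkp, Ddit4, Pfkl and Ankrd37. At least 2-fold lower were 4 members, Pfkfb3, P4ha2, Ldhb and Ak3, where 8.77% of all kept genes were. The remaining 28 lay between these limits. Pfkfb3, at 9.1 in p27delta51, was kept through its wild type signal alone, so the filter fixed its place among the lower members. Egln3, at 17.5 in wild type, was kept through its p27delta51 signal alone. The 18 spike-in control probe sets, which read no mouse gene, were also all higher, with a median of 0.38, and their part in the smaller differences was not tested. Just inside the 2-fold limit were Ankrd37 at 1.02 and Pfkl at 1.04, and just outside it Kdm3a at 0.98 and Ndrg1 at 0.88. In bulk RNA, fewer cells with a transcript and less of it per cell cannot be told apart.

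**Figure D1:**
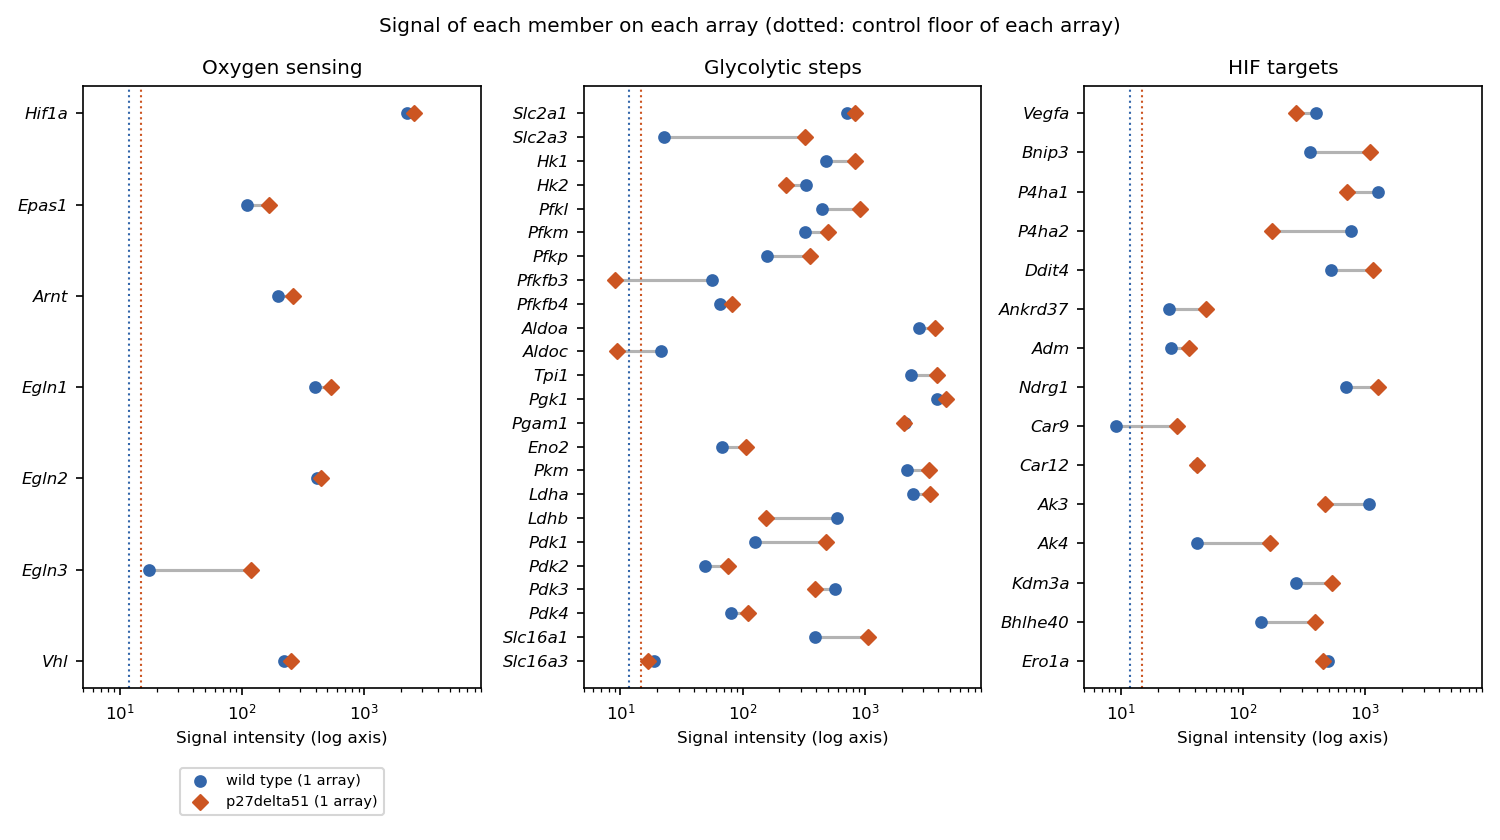
Signal intensity (log axis) of each of the 46 members with a probe set on the wild type array (blue circles) and the p27delta51 array (orange diamonds), by role, with the control floor of each array dotted. The widest gaps with p27delta51 higher are those of Slc2a3 (321 against 22.8) and Egln3 (118 against 17.5), and Pfkfb3 and P4ha2 lie the other way.

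The upstream sequence of some of these genes is shown because HIF binds a short core motif there, and because members with the motif lay on both sides of the comparison. The 250 bases before the annotated start were taken from RefSeq (build GRCm38.p6) for 45 of the 50 members, and where a gene has several starts the one farthest upstream was used. The core was searched as ACGTG or GCGTG on either strand, which reads CACGT or CACGC on the printed one, and overlapping matches were counted as 1 site. In the lines that follow, capitals mark the matches. Bnip3 (chr7:138909507-138909756, minus strand), Pdk1 (chr2:71872974-71873223, plus strand), Ak4 (chr4:101419039-101419288, plus strand) and Egln3 (chr12:54203875-54204124, minus strand) were among the members higher in p27delta51. P4ha2 (chr11:54100674-54100923, plus strand) and Ldhb (chr6:142507958-142508207, minus strand) were among those lower. They were chosen after their values were seen.
Bnip3: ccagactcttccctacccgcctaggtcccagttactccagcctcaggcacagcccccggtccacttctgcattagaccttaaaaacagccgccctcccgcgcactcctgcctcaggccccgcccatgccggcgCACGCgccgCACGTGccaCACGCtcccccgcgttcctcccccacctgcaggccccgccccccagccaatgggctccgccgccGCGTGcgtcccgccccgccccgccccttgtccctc
Pdk1: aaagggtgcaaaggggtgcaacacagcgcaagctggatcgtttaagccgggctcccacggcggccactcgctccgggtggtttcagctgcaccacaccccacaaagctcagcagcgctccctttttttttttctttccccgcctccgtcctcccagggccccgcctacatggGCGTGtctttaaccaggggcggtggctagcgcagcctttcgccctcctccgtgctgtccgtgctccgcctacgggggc
Ak4: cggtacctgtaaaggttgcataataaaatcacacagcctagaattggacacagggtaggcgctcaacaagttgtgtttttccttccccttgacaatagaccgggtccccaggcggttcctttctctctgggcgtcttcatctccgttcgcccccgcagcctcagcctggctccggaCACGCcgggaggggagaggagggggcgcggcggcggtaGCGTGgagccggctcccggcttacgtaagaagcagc
Egln3: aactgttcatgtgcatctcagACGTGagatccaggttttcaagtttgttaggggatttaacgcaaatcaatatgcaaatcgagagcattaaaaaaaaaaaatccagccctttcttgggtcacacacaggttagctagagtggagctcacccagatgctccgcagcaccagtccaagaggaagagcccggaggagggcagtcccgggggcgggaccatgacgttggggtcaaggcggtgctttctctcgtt
P4ha2: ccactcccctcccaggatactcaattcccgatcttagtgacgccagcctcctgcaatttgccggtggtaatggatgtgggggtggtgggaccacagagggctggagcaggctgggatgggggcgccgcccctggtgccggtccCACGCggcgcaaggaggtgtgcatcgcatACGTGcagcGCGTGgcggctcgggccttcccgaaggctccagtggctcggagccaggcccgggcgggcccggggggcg
Ldhb: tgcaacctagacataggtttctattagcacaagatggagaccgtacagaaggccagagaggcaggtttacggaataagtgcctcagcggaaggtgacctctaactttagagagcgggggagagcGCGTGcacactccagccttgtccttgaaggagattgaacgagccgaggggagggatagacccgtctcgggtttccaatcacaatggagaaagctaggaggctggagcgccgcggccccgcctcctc
A core motif was found for all 4 of the higher genes printed and for both of the lower ones. Bnip3 had 4 sites, of which 3 lay close together, with first bases at -117, -108 and -99 from the start. P4ha2 had 3 sites, Ak4 had 2, and Pdk1, Egln3 and Ldhb had 1 each. Over all members with a sequence, 35 of 45 (77.8%) held at least 1 match, against 57.9% of the 9049 kept genes with a sequence and 38.6% of all 27025 genes in the table. All 9 of the members at least 2-fold higher that had a sequence held a match, as did 3 of the 4 at least 2-fold lower and 18 of the 26 between. Ak3 was the lower member without one. Slc2a3 and Bhlhe40, both higher, are named only. Over all kept genes, the share with a match was 50.2% among those at least 2-fold higher and 50.7% among those at least 2-fold lower. A match is a run of letters and not a binding site, and the members were gathered partly as known HIF targets.

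**Figure D2:**
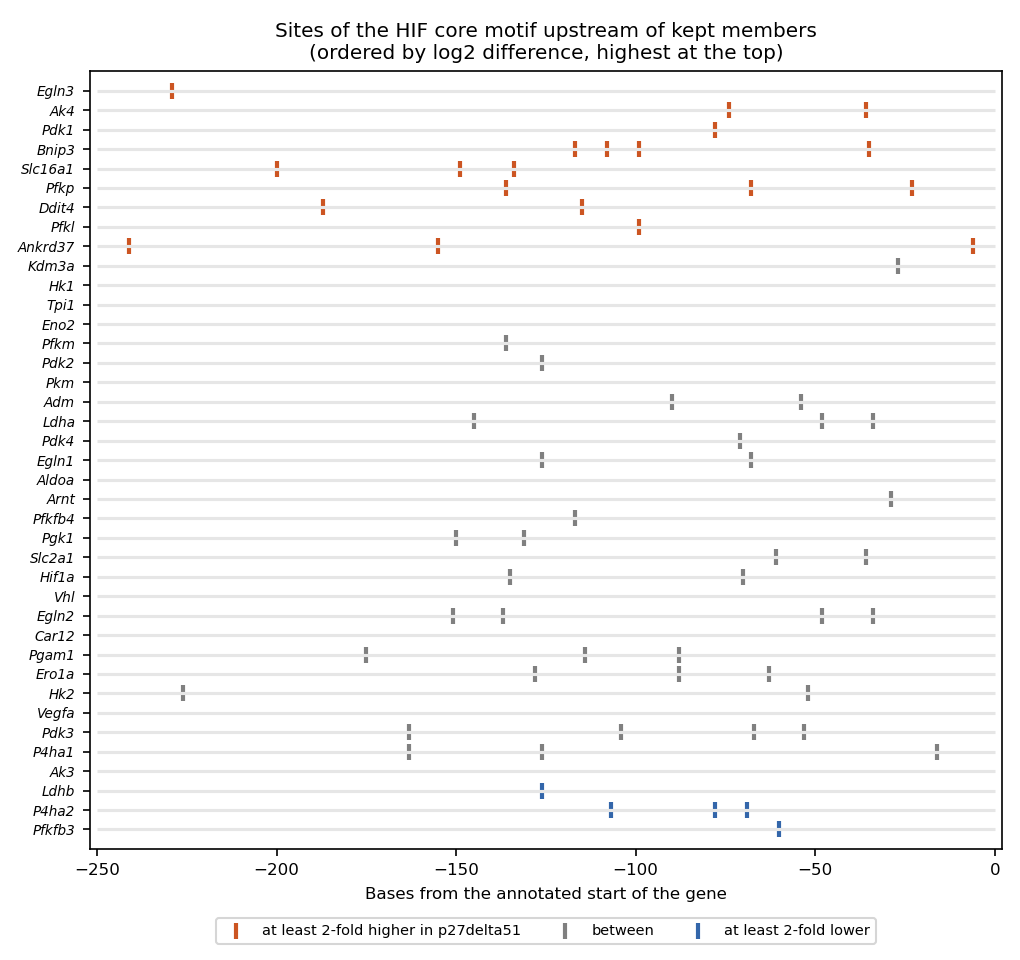
Position of each core motif match (ticks), in bases from the annotated start, for the 39 kept members with a sequence, ordered by log2 difference with the highest at the top. Ticks occur throughout the order, for members higher (orange), between (grey) and lower (blue) in p27delta51.

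Among the oxygen-sensing genes only Egln3 was 2-fold apart. By the probe set used, all 7 gave a higher signal in p27delta51, with a median log2 difference of 0.39. With the mean of all bright probe sets the median was 0.17 and Arnt was at -0.23, and with the filter at the upper quartile of signal the median was 0.18. Hif1a, the gene of the widely expressed HIF alpha subunit, had a signal of 2543 in p27delta51 against 2240 in wild type. This was a log2 difference of 0.18, and 2 other bright probe sets of Hif1a gave -0.02 and -0.14, so the direction depended on the probe set. Epas1, which encodes the HIF-2 alpha subunit, gave 167 against 109, a difference of 0.61, and its second bright probe set gave 0.55. Arnt, the shared partner subunit, gave 261 against 199, a difference of 0.39. Its other bright probe sets gave -0.07, -0.08 and -1.18, and the last of these was nearly as bright, at 140 against 315. For that last probe set, however, the authors' deposited table gave a log2 ratio of 0.3 and a no-change call. Neither Hif1a nor Arnt can therefore be given a direction.

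Egln3 differed more than the other oxygen-sensing genes. It encodes a HIF prolyl hydroxylase and is itself a known HIF target. The signal was 118 in p27delta51 against 17.5 in wild type, 6.74-fold higher, above 98.3% of all kept genes in log2 difference. The wild type signal is near the control floor of 11.8, the highest signal there of probe sets for absent bacterial transcripts, so the fold is approximate. A second Egln3 probe set gave 66.6 against 1.0, at least 5.64-fold higher when the wild type signal is raised to the floor. Egln1, the main HIF hydroxylase gene of most cells, gave 539 against 398, a log2 difference of 0.44. Egln2 gave 444 against 414, and Vhl gave 252 against 223, differences of 0.10 and 0.17.

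At the entry of glucose into the cell, the transporter genes differed to unequal degrees. Slc2a3, which encodes the high-affinity transporter GLUT3, gave 321 in p27delta51 against 22.8 in wild type. It was 14.1-fold higher, the largest difference among the members, and lay above 99.1% of kept genes. Of its other probe sets, the bright one gave 94.1 against 1.1, at least 7.97-fold higher. The 2 dim ones gave 31.6 against 4.4 and 16.3 against 5.7, also higher in p27delta51. Slc2a1, the gene of the basal transporter GLUT1, gave 838 against 721, and its 3 bright probe sets gave log2 differences between 0.14 and 0.22.

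From hexokinase to aldolase, 5 of 6 kept members were higher in p27delta51 and 2 of them at least 2-fold, where 10.8% of all kept genes were. Hk1, the broadly expressed hexokinase gene, gave 828 against 485, 1.71-fold higher, whereas Hk2, the inducible and HIF-responsive hexokinase gene, gave 227 against 329, 1.45-fold lower. All 3 phosphofructokinase genes, which encode the enzyme of the committed step, were higher. Pfkl gave 916 against 445 (2.06-fold), Pfkp gave 355 against 157 (2.26-fold) and Pfkm gave 501 against 325 (1.54-fold). The second bright probe set of Pfkl gave a log2 difference of 1.13, while that of Pfkp gave 0.34, so the size for Pfkp depended on the probe set. Aldoa, the main aldolase gene, gave 3755 against 2777, and its 5 bright probe sets gave differences between 0.04 and 0.54. Aldoc was dim, at 9.4 against 21.6.

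The genes of the enzymes that make and remove fructose 2,6-bisphosphate, the activator of phosphofructokinase, went apart. Pfkfb3 gave 9.1 in p27delta51, under its floor of 14.8, against 56.6 in wild type, and was at least 3.82-fold lower. A second, dim probe set gave 10.0 against 26.6. Pfkfb4 gave 81.9 against 64.7, a log2 difference of 0.34, and the authors' deposited table gave it a log2 ratio of 0.0 and a no-change call.

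The steps from triose phosphate to pyruvate differed by less than 2-fold for all 5 kept members. Of these, 4 were higher in p27delta51, and the median log2 difference was 0.61. Tpi1, for triosephosphate isomerase, gave 3866 against 2396, 1.61-fold higher, and its 3 probe sets gave differences between 0.64 and 0.75. Pkm, the pyruvate kinase gene, gave 3374 against 2216, 1.52-fold higher. Eno2, the gene of the neuron-type enolase, gave 107 against 68.0, 1.58-fold higher. Pgk1, for phosphoglycerate kinase, gave 4640 against 3904, and 1 of its 3 bright probe sets gave -0.03, so it has no settled direction. Pgam1, for phosphoglycerate mutase, gave 2096 against 2120.

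At the end of the pathway the 2 lactate dehydrogenase genes went opposite ways. Ldha, whose product favours the making of lactate and which is a known HIF target, gave 3440 in p27delta51 against 2466 in wild type, 1.39-fold higher. Ldhb, whose product favours the use of lactate, gave 155 against 595, 3.84-fold lower. All 4 probe sets of Ldhb were bright, and their log2 differences lay between -2.30 and -1.94. Slc16a1, which encodes the lactate carrier MCT1, gave 1055 against 388, 2.72-fold higher. Slc16a3, the HIF-responsive carrier gene, was dim on both arrays, at 16.9 against 18.7.

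Among the pyruvate dehydrogenase kinase genes, whose products keep pyruvate out of mitochondrial oxidation, Pdk1 differed most. Pdk1, a HIF-responsive member, gave 483 against 125, 3.85-fold higher in p27delta51. Its other 2 bright probe sets were higher too, so the 3 log2 differences were 1.95, 2.61 and 1.59. Pdk2 gave 75.7 against 49.1, and the authors' deposited table gave it a log2 ratio of 0.0. Pdk4, a gene induced by fasting, gave 110 against 79.7. Pdk3 gave 389 against 569, a log2 difference of -0.55.

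**Figure D3:**
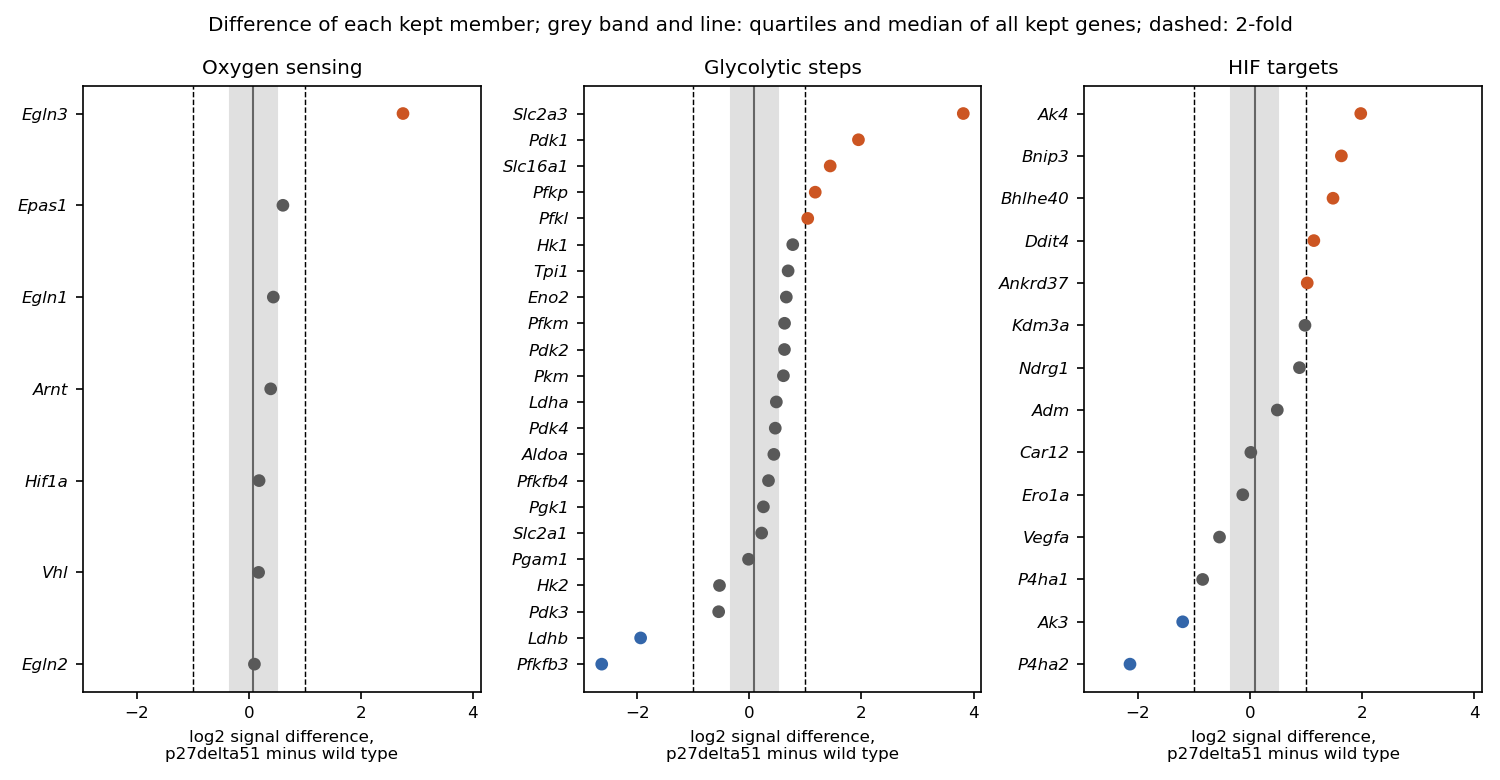
The log2 signal difference, p27delta51 minus wild type, of each of the 43 kept members by role, over the median (grey line) and quartiles (grey band) of all kept genes, with the 2-fold limits dashed. Oxygen-sensing genes other than Egln3 lie close to the band, and the HIF targets spread from P4ha2 at -2.14 to Ak4 at 1.98.

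The HIF targets outside glycolysis spread widely in both directions. Of 14 kept members, 9 were higher and 5 lower in p27delta51. Among them 5 were 2-fold or more higher, where 10.8% of all kept genes were, and 2 were 2-fold or more lower, where 8.77% were. Their median log2 difference was 0.68, with quartiles of -0.44 and 1.11. The 5 regulators and stress genes were all higher, and the 3 genes of collagen hydroxylation and disulfide formation were all lower.

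Bnip3, which encodes a mitochondrial protein that marks mitochondria for removal, gave 1082 in p27delta51 against 350 in wild type, 3.09-fold higher. Bhlhe40, a gene of a transcriptional repressor that HIF and the clock control, gave 387 against 139, 2.79-fold higher. Ddit4, whose product restrains the growth kinase mTORC1, gave 1146 against 521, 2.20-fold higher. Ankrd37, an ankyrin repeat gene induced by HIF, gave 49.9 against 24.6, 2.03-fold higher, at signals near background. Kdm3a, which encodes a histone lysine demethylase, gave 537 against 272, 1.97-fold higher. Ndrg1, a stress and differentiation gene, gave 1278 against 694, and its 5 bright probe sets gave log2 differences between 0.79 and 1.02.

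The adenylate kinase genes, whose products work in mitochondria, went opposite ways. Ak4, the HIF-responsive one, gave 166 in p27delta51 against 42.1 in wild type, 3.93-fold higher. Its other 2 bright probe sets gave log2 differences of 2.03 and 0.72. Ak3, counted as a HIF target only because it was listed with Ak4, gave 469 against 1078, 2.30-fold lower. All 3 of its probe sets lay between -1.25 and -1.07.

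The genes whose products act on secreted proteins were the lower group among the HIF targets. P4ha2, an alpha subunit of collagen prolyl 4-hydroxylase, gave 172 in p27delta51 against 760 in wild type, 4.42-fold lower. P4ha1, the gene of another alpha subunit, gave 703 against 1263, 1.80-fold lower, and its second probe set gave a log2 difference of -1.11. Ero1a, which encodes an oxidase that drives disulfide formation in the endoplasmic reticulum, gave 453 against 496, with its 3 probe sets between -0.35 and -0.13.

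The genes of secreted signals and carbonic anhydrases had no member called 2-fold apart by the probe set used. A second bright probe set of Adm had a larger difference, under the limit given below. Vegfa, the gene of the main growth factor for blood vessels and a classical HIF target, gave 270 against 395, 1.46-fold lower, and its second probe set gave a log2 difference of -0.49. Adm, for the vessel-dilating peptide adrenomedullin, gave 36.0 against 25.7, a difference of 0.49. A second bright Adm probe set gave 37.1 against 10.8, at least 3.14-fold higher. This second set was bright through its p27delta51 signal alone and under the floor in wild type. The filter therefore fixed both its side and a size of at least 2-fold. The ratio listed for it by the authors was 2.0 on the log2 scale, with an increase call. For the Adm probe set used, they listed 0.9 and a no-change call. Car12 gave 42.0 against 41.6. Car9, a carbonic anhydrase gene used as a marker of hypoxia, was not kept, at 28.5 in p27delta51 against 9.1 in wild type, under the floor there and at least 2.42-fold higher.

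Several probe sets for 1 gene were the only repeat measurement, and their spread is technical. Of 23 members read by 2 or more bright probe sets, 20 had every one on the same side, the exceptions being Arnt, Hif1a and Pgk1. All 8 of the 2-fold members among these had their bright probe sets on the same side, but they were picked for their difference in these same data. Both Egln3 probe sets, and a further bright one of each of Slc2a3, Ak4, Epas1 and Adm, were bright through p27delta51 alone. For these the filter fixed the side. The median SD between probe sets was 0.17 on the log2 scale for the members and 0.23 for 5316 genes.

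**Figure D4:**
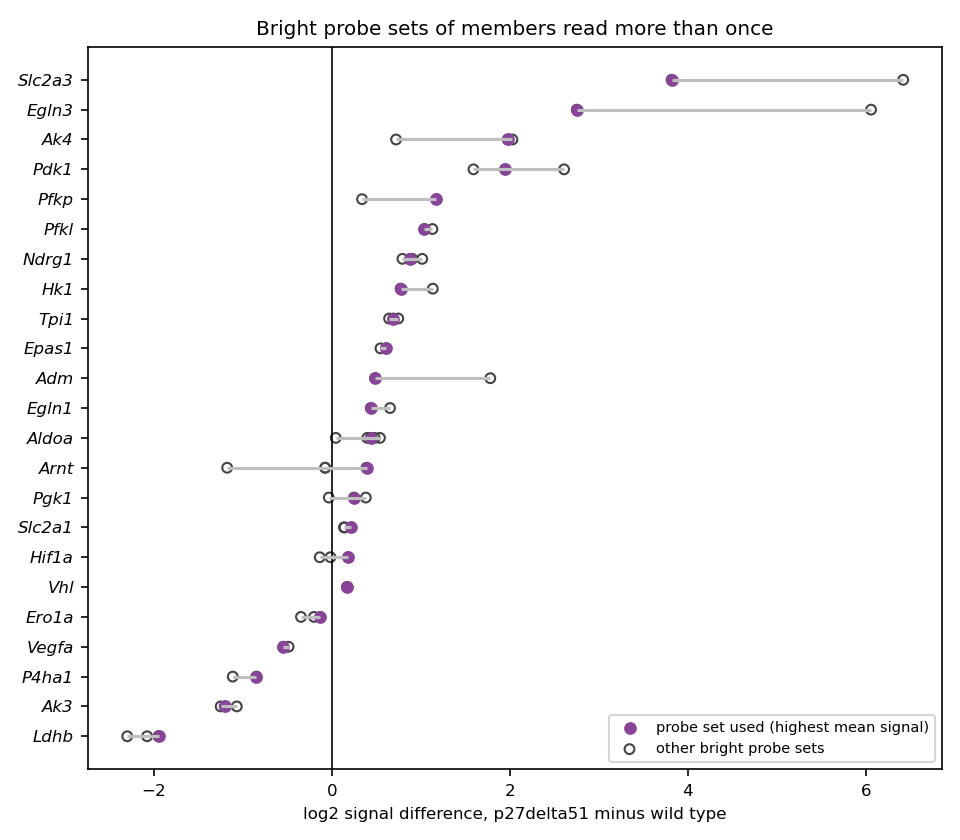
The log2 signal difference, p27delta51 minus wild type, of every bright probe set of the 23 members with at least 2, the one used in purple and the others open, joined by a grey line. The 4 probe sets of Ldhb lie between -2.30 and -1.94, while those of Arnt fall on both sides of 0.

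The authors' deposited table, made from the same 2 arrays, gave an increase or marginal increase call to 23 of the 43 kept members, where it gave one to 27.3% of all kept genes. It gave a decrease or marginal decrease call to 9, where it gave one to 20.6%, and no change to 11. All 11 members at least 2-fold higher carried an increase call and all 4 at least 2-fold lower a decrease call in the authors' deposited table. In the authors' deposited table the ratios on the log2 scale were 3.6 for Slc2a3, 2.5 for Egln3, 2.1 for Pdk1, -2.3 for Ldhb and -2.1 for P4ha2. These calls compare 2 arrays and not 2 genotypes.

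**Figure D5:**
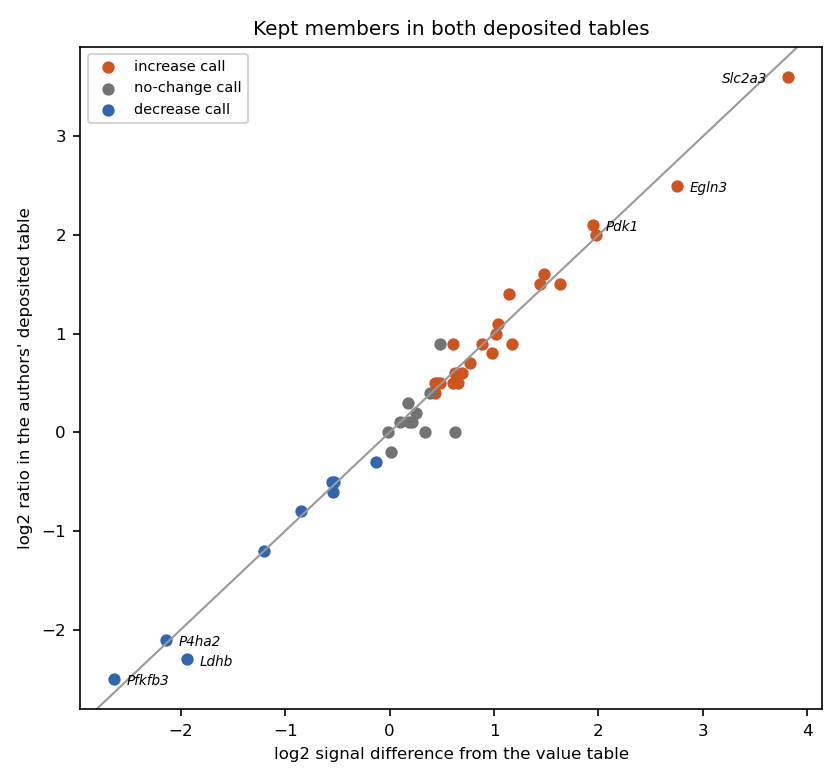
Log2 ratio of p27delta51 over wild type in the authors' deposited table against the log2 signal difference from the value table, for the 43 kept members, coloured by the authors' change call, with the line of equality in grey. All 15 members at least 2-fold apart carry a call in the matching direction, as Slc2a3 (3.6) and Pfkfb3 (-2.5) do.

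Other genes of the same pathways, outside the 50 members, lay more often on the lower side. Of 67 kept genes from lists of further glycolytic isoforms and side branches, the pyruvate dehydrogenase complex and further HIF pathway genes, each gene counted once, 29 were higher and 38 lower, with a median log2 difference of -0.20. Among them 5 were 2-fold or more higher, where 10.8% of all kept genes were, and 9 were 2-fold or more lower, where 8.77% were. The 9 kept genes of the pyruvate dehydrogenase complex and pyruvate import all lay within 2-fold, between -0.49 and 0.34. The 19 kept further isoforms and side branch genes had a median of -0.20, and the 42 further HIF pathway genes one of -0.05, with 5 and 7 of the latter at least 2-fold higher and lower.

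On the higher side of this wider list, Angptl4, a HIF- and fasting-induced inhibitor of lipoprotein lipase, gave 72.2 against 18.8, 3.84-fold higher. Angptl4 was kept through its p27delta51 signal alone, so the filter fixed its direction. Errfi1, a feedback inhibitor gene of the EGF receptor, gave 741 against 196, 3.78-fold higher. Sap30, for a subunit of a histone deacetylase complex, Zfp395, a zinc finger gene, and Rora, for a nuclear receptor, were 2.58-fold, 2.47-fold and 2.46-fold higher, and Rpia, a pentose phosphate pathway gene, 1.99-fold higher. On the lower side, Plod2, whose product hydroxylates collagen lysines, gave 351 in p27delta51 against 2160 in wild type, 6.15-fold lower. Edn1, the endothelin 1 gene, gave 21.4 against 130, and Stc2, a secreted stanniocalcin gene, gave 32.1 against 183. Edn1 was kept through its wild type signal alone, so the filter fixed its direction. Eno3, the muscle-type enolase gene, gave 139 against 760, 5.46-fold lower. Tgfb3, a TGF-beta ligand gene, was 4.08-fold lower and Arnt2, a relative of Arnt, 2.27-fold lower. Plod2 thus stood with P4ha1 and P4ha2, the collagen hydroxylase genes among the members, on the lower side.

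Chromosome 6, which carries Cdkn1b, also carries 9 of the 43 kept members. In the order of the GRCm38.p6 gene table these are Pdk4, Kdm3a, Hk2, Bhlhe40, Vhl, Slc2a3, Eno2 and Tpi1 before Cdkn1b and Ldhb after it. Ldhb was separated from Cdkn1b by 22 other kept genes, Tpi1 by 49, Eno2 by 52 and Slc2a3 by 65. These members include the highest difference, Slc2a3 at 3.82, and a low one, Ldhb at -1.94. The 563 kept genes of chromosome 6 had a median log2 difference of 0.16. Without the genes of chromosome 6, 34 kept members were left, with a median of 0.46. Of these, 9 were 2-fold or more higher and 3 were 2-fold or more lower. Of the 10596 kept genes left, 1120 were 2-fold or more higher and 923 lower. The median of the HIF targets was then 0.25, since Kdm3a and Bhlhe40 drop out. Whether the chromosome around the allele has a part in these differences was not tested.

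The arrays differed in other respects as well. Of 2 Cdkn1b probe sets, one gave 1016 in p27delta51 against 542 in wild type and the other 1.6 against 62.0, and which of them reads the deleted sequence is not known from the files. All 13 kept genes of a proliferation list gave a higher signal in p27delta51, by 2-fold or more for 10, with a summed signal of 11848 against 5465. Xist gave 876 against 25.8. Of the members, Pgk1 and Pdk3 lie on the X chromosome. All 12 fibroblast markers were above the floor on both arrays, but individual markers were far apart, with log2 differences from -3.91 to 3.72. Of these markers 3 were 2-fold or more higher in p27delta51 and 2 were 2-fold or more lower. Their median signal was 2000 in p27delta51 against 3937 in wild type, and their summed signals were 50157 and 46474. Macrophage markers were above the floor on both arrays for 5 of 8, endothelial markers for 1 of 8 and epithelial markers for 3 of 8. Their summed signals were 217 against 172, 50.8 against 92.9 and 151 against 284. The 9 kept housekeeping genes had a median of 0.11, with 0 at least 2-fold apart. The part of these differences in the values of the members was not tested.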

How the data were processed

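Biotin-labelled cRNA made from total RNA was hybridised to Affymetrix arrays, per the labels' protocols. The deposited value table holds linear intensity values for 45101 probe sets on both arrays. The submitters' processing notes list RMA and affy and give no version. RMA values would be log2, but the deposited intensity values are linear, with 4 zeros and equal 2% trimmed means (150.0), which is the form of MAS5 signals. The program behind them is not stated in the labels. The second deposited table holds, per the file headers, the authors' log2 ratio per probe set with a change p-value and call. That p-value from the authors compares the 2 arrays and was not used itself, whereas the calls deposited with it were counted.

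Probe sets were named from the supplied platform annotation, with current symbols from the GRCm38.p6 gene table. One gene symbol was carried by 34945 probe sets outside the 64 controls, and 932 carried several. The number of unused sample columns was 0. Log2 was taken of the signals, with 0.1 standing in for 0. The control floor, the highest signal of 27 probe sets for bacterial transcripts, was 14.8 for p27delta51 and 11.8 for wild type. Folds against a signal at or below it are given as at least that size.

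The number of arrays limits the precision, and no test was made. The members, the further lists and the alternatives were chosen with earlier results of these data known. Named genes were all members, and of the further pathway genes the 6 with the largest and the 6 with the smallest log2 difference. The steps were checked on simulated data. Python 3.11.15, numpy 2.4.6, pandas 2.3.3 and statsmodels 0.14.6 were used. Alternatives covered the choice of probe set, scaling between arrays, filters, an offset, fold limits and the authors' ratio.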

Additional observations from a re-analysis of the deposited data

Results flagged for a closer look

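These values lie in probe sets that the rule for members left out, and their signals exceeded the control floor on both arrays. The array control probe sets of Gapdh, the glycolytic dehydrogenase gene, gave 9065, 8243 and 7629 in p27delta51 and 7014, 6434 and 5882 in wild type, and the log2 difference of the brightest was 0.37. The brightest Gapdh probe set that also matches other annotated genes gave 7211 against 5761, a difference of 0.32. Bnip3l, a mitophagy gene related to Bnip3, was read only by probe sets that also name another gene, and the brightest gave 1490 against 1279, a difference of 0.22. A probe set that names Hk1 together with 5 other genes gave 7948 against 6030, a difference of 0.40. The 18 spike-in control probe sets all gave more signal for p27delta51, by a median of 0.38 on the log2 scale, close to the size of the Gapdh and Aldoa differences. The part of spike-in or labelling differences in these values was not tested.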

How the results depend on the processing

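No median of the members changed direction, but that of all kept genes went from 0.079 to -0.010 with loess. The balance of the 2-fold counts over all kept genes also changed. It went from 1200 higher and 979 lower to 1030 and 1073 with loess and 1079 and 1080 with median centring. Of the members under 2-fold, 3 changed sign. They were Arnt (-0.23 with the mean of all bright probe sets), Pgam1 (0.03 with quantile normalization) and Car12 (between -0.20 and -0.04 in 4 settings). All 15 members at least 2-fold apart kept their direction in every alternative in which they had a value, and 12 of them stayed at least 2-fold apart in each. The exceptions were Ankrd37, Pfkl and Pfkp, whose lowest values were 0.53, 0.96 and 0.76. Median centring gave 9 members at least 2-fold higher, loess 10 and quantile normalization 10, with 4 lower in each. Raising signals to the floor changed no count, since a kept gene with a signal at the floor is at least 2-fold apart by construction. Among the members this applies to Pfkfb3, which is among the 12 that stayed 2-fold apart. The cause of the following moves was not tested except where the limit itself, or a gene named with its values, accounts for the move. A 1.5-fold limit gave 20 members higher, and 2426 kept genes higher and 1774 lower. A 3-fold limit gave 5 members higher, and 533 kept genes higher and 581 lower. For the further pathway genes these limits gave 9 and 2 higher and 14 and 5 lower. With no filter, which tests more genes, 2811 genes were higher and 2587 lower, and with the upper-quartile filter 559 and 461, while the further pathway genes had 8 and 3 higher. With log2 of the signal plus 32, 752 kept genes were higher. The median of the HIF targets was 0.94 with the mean of all bright probe sets, 0.38 with the upper-quartile filter and 0.39 with the offset of 32. Without chromosome 6, a setting chosen after seeing the data, it was 0.25. The value of 0.94 came with a move of Adm from 0.49 to 1.13, through its second probe set, under the floor in wild type. Ndrg1 and Kdm3a were then the middle pair. No paired analysis was possible because each genotype has 1 array. Folds against signals near background, as for Egln3, Slc2a3 and Ankrd37, are approximate.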
